A study of Mus musculus with 3 samples.

Results

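The 9 genes described here encode partners of the COMMD proteins in endosomal recycling and were chosen by symbol; each was found once among the 53802 gene identifiers of the study: Ccdc22, Ccdc93, Dscr3, 9030624J02Rik, Vps29, Vps35, Vps26a, Snx17 and Snx27. The GENCODE annotation on GRCm38 names 9030624J02Rik as Vps35l and Dscr3 as Vps26c.

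Endosomes sort membrane proteins either towards lysosomes or back to the cell surface. The COMMD proteins assemble with the coiled-coil scaffolds Ccdc22 and Ccdc93 into the CCC complex, which works with retriever (Dscr3, 9030624J02Rik and Vps29) to recycle cargo such as integrins that the adaptor Snx17 selects. Retromer, built from Vps35, Vps26a or Vps26b and the shared subunit Vps29, carries other cargo, part of it selected by the adaptor Snx27. Macrophages and monocytes depend on these routes to return receptors and transporters to their surface while they take up large amounts of material.

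The cells were Ly6Chi monocytes sorted from livers of male C57BL/6 mice aged 8 weeks, taken 24 h after acetaminophen. The mice had been fasted for 12 h, received 300 mg/kg into the peritoneum and had chow back 2 h later. The 2 control libraries, numbered 1 and 3, came from Commd10fl/fl mice, whose Commd10 is floxed and undeleted, and the 1 knockout library, numbered 4, from LysMDCommd10 mice, in which the LysM-Cre driver of myeloid cells acts on it. All 3 libraries therefore came from injured livers, and how many mice gave cells to each library is not stated.

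Single cells were captured in droplets and transcript 3' ends were counted by unique molecular identifiers (UMIs). The libraries held 4814, 8109 and 5152 barcodes and 40092348, 72867668 and 30302932 UMIs for control 1, control 3 and knockout 4. After filters, 4070, 7394 and 4425 monocyte-macrophage cells remained, with median depths of 8809, 8185 and 6879 UMIs. Between 8 and 26 barcodes were shared by each pair of libraries. All 5 monocyte-macrophage markers were present, and their summed level was 17383, 13421 and 8497 CPM, counts scaled to a library total of 1000000. Lyz2, the gene that carries LysM-Cre, is among them. The 4 markers of inflammatory monocytes (Vcan, F13a1, Ly6c2, Ccr2) together stood at 2019, 2625 and 2522 CPM. Cells with high T cell, B cell or Kupffer cell markers had been left out, so the levels left of these were limited in advance. T cell markers did not exceed 1.63 CPM and Kupffer cell markers 2.19, while B cell markers were at 46.5, 44.7 and 22.5. Hepatocyte markers were at 22.0, 65.7 and 27.6 CPM and erythroid markers at 42.4, 61.2 and 30.3, with no cell left out on them. Platelet markers were 3.47 and 3.58 CPM in the controls and 29.7 in the knockout library. The targeted gene Commd10 was at 17.2, 10.3 and 8.63 CPM, scaled from here on with TMM factors, a log2 change of -0.67 ± 0.31 (SE) with an adjusted p of 0.621 in edgeR. The knockout library was thus the lowest, close to control 3, and a 3' tag outside the deleted part would not show the deletion.

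Cells were grouped here by fixed marker genes, none of them a member. A cell entered the first group whose summed markers reached a set number of UMIs per 10000: Ace-Treml4 (patrolling markers Ace, Spn, Treml4, Adgre4; 10), C1q (C1qa, C1qb, C1qc; 10), MHC-II (H2-Ab1, H2-Aa, H2-Eb1, Cd74; 20), Arg1 (10), Gpnmb-Lpl (Gpnmb, Lpl, Atp6v0d2, Mmp12; 10), S100a8-Chil3 (S100a8, S100a9, Lcn2, Chil3; 100) and Vcan-Ly6c2 (Vcan, F13a1, Ly6c2, Ccr2; 20). All other cells formed an ungated group, which makes 8 groups. These groups are ranges of marker level, not cell types. Between 0.663% and 24.0% of a library's cells lay within 0.8 to 1.2 times a given level, the most at the Vcan-Ly6c2 level. Within the Ace-Treml4 group the Vcan-Ly6c2 markers had a median of 10.1 to 13.6 UMIs per 10000 over cells, and within the Arg1 group 19.1 to 23.6. The Gpnmb-Lpl markers had medians of 0 to 4.00 in the Arg1 group, and Arg1 itself had a median of 0 in the Gpnmb-Lpl group in every library. The Arg1 group held 5.18%, 1.42% and 17.9% of the cells of control 1, control 3 and knockout 4. The Arg1 level was reached by 8.28%, 2.64% and 26.8% of cells, the rest of which had entered an earlier group. Leaving out the Arg1 group therefore does not leave out all cells high in Arg1.

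On GRCm38, the CCC scaffold genes lie at chrX:7593809-7605517 on the minus strand (Ccdc22) and chr1:121431049-121506460 on the plus strand (Ccdc93). The retriever genes lie at chr16:94497783-94526830, minus strand (Dscr3), and chr7:118740226-118842966, plus strand (9030624J02Rik), and the shared subunit Vps29 at chr5:122354369-122364984, plus strand. The retromer genes lie at chr8:85260392-85299802 (Vps35) and chr10:62455235-62486805 (Vps26a), both on the minus strand. The adaptors lie at chr5:31193227-31199143, plus strand (Snx17), and chr3:94497544-94582716, minus strand (Snx27). Exons of Ccdc22 overlap those of Gm36995 on its own strand, so a read from the shared part does not tell these genes apart. How the counting treated such reads is not stated. Ccdc22, Ccdc93, 9030624J02Rik, Vps29, Vps35 and Snx17 also overlap exons of genes on the opposite strand, and the strand setting of the counting is not stated.

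Promoter windows of RefSeq (GRCm38.p6; 250 bases before to 50 after the start) were found for 5 of the 9 members, Ccdc22, Dscr3, Vps29, Vps26a and Snx17. They are shown because Vps29 and Ccdc22 were both called lower in Ace-Treml4 cells and higher in C1q cells below, while Vps26a was not. Those calls of Ccdc22 held in only 2 and 1 of 6 alternative settings, and Vps29 was also called in other groups. Vps26a too was below the other groups in Ace-Treml4 cells (log2 difference -0.17, and -0.28 without control 1). The difference between these genes was not tested. A further reason is that many lysosomal genes carry the E-box CACGTG near their start. The parts before the start that hold no annotated exon read as follows, 5' to 3' on the gene's strand, with CACGTG in capitals.
Vps26a, chr10:62486806-62487055, minus strand: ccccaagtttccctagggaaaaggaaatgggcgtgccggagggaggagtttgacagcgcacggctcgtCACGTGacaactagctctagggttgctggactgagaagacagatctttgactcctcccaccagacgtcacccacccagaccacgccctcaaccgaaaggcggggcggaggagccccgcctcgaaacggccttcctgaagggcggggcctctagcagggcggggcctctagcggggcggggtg
Vps29, chr5:122354234-122354327, plus strand: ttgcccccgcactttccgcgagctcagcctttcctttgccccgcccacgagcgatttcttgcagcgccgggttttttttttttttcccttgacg
Ccdc22, chrX:7605518-7605670, minus strand: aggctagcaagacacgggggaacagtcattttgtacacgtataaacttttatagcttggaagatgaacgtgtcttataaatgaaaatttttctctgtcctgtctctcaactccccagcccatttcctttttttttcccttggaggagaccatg
The Vps26a window held CACGTG at -182, within the stretch shown, and again at +33, counted from the more upstream of its RefSeq starts. The window of its other start held it at -175, the same copy as that at +33, and at -151, a further copy. Neither lies in the stretch shown. The Ccdc22 window held it at +27, past the stretch shown, and those of Vps29, Dscr3 and Snx17 did not hold these letters. CACGTG reads the same on both strands. It occurred in 2349 of 32851 windows of this length (7.15%), and 2 or more copies occurred in 0.594%. A match is a description of the letters and not evidence of a bound factor.

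The comparison of knockout and control libraries asks whether the partners of the COMMD proteins change their transcript level where Commd10 is targeted. None of the 9 members passed the test in monocyte-macrophage cells (edgeR with Benjamini-Hochberg adjustment over 14799 genes), against 28 genes or 0.189% of all genes tested. DESeq2 also called 0 members, and 1 member had an unadjusted p under 0.05. The knockout library stood above both controls for 6 members and below both for 1, against 36.1% and 36.9% of all genes. The median log2 change of the members was 0.11, beside -0.0086 over all genes tested. With 1 knockout library, its difference from the controls cannot be told apart from a difference between libraries.

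**Figure D1:**
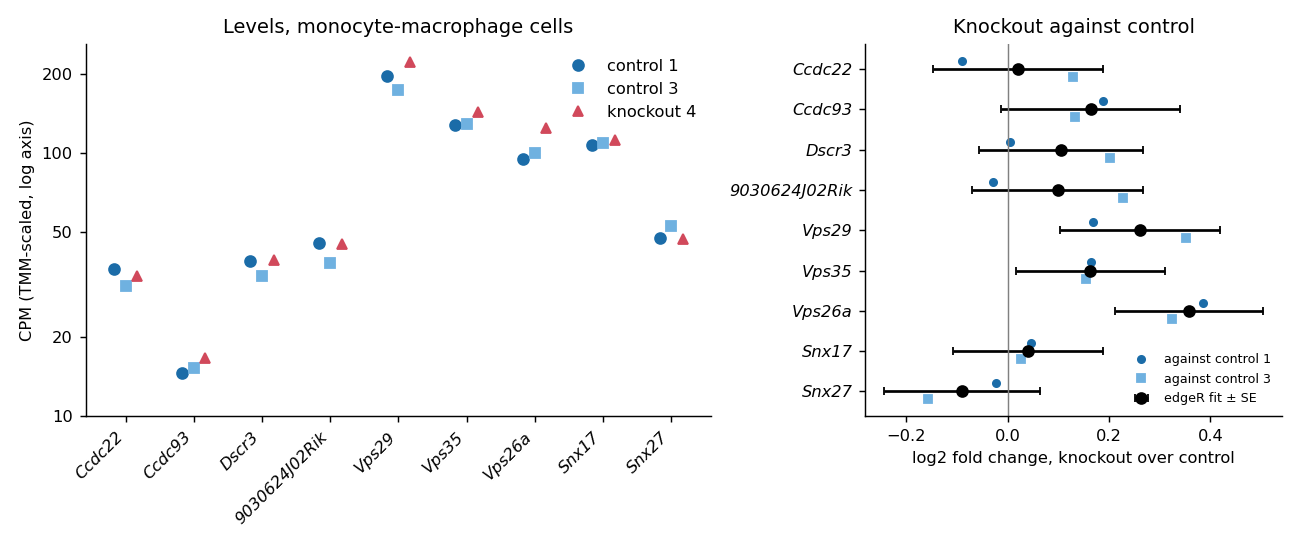
Left, level of each of the 9 genes in CPM (log axis) in control 1, control 3 and knockout 4, over monocyte-macrophage cells. Right, log2 change of knockout over control, black with SE for the edgeR fit and coloured against each control alone. Vps26a lies farthest from 0 at 0.36, and Ccdc22 and 9030624J02Rik change sign between the controls.

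The CCC scaffolds showed small differences. Ccdc22, which links COMMD proteins to the rest of the complex, was at 36.3 and 31.4 CPM in control libraries 1 and 3, and at 34.3 CPM in the knockout. The knockout value lay between the controls, and the log2 change was 0.02 ± 0.17 (SE). Ccdc93, its coiled-coil partner, was at 14.6, 15.3 and 16.7 CPM, from 587, 1099 and 485 UMIs. The knockout library was above both controls by 0.16 ± 0.18 on the log2 scale, less than its standard error.

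Of the retriever subunits, Dscr3, which holds the place that Vps26 has in retromer, was at 38.9, 34.1 and 39.2 CPM. The knockout library was level with control 1 and above control 3, and the change was 0.11 ± 0.16. 9030624J02Rik, the Vps35-like subunit, was at 45.7, 38.4 and 45.0 CPM, with the knockout value between the controls and a change of 0.10 ± 0.17. For both retriever subunits the 2 controls differed from each other by more than the knockout library differed from control 1. Against control 1 alone the change of Ccdc22 was -0.09 and that of 9030624J02Rik was -0.03, so neither has a direction here.

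Vps29, the subunit that retriever and retromer share, was at 197 and 174 CPM in control libraries 1 and 3, and at 222 CPM in the knockout. The groups did not overlap, and the log2 change was 0.26 ± 0.16 (edgeR, adjusted p = 0.693). Vps35, the retromer backbone, was at 128, 129 and 144 CPM, with a change of 0.16 ± 0.15 and an adjusted p of 0.79. Vps26a, which links retromer to membranes and to adaptors, was at 95.1, 99.8 and 125 CPM from 3822, 7191 and 3621 UMIs. Its knockout value was above both controls, which were close together, and the change was 0.36 ± 0.15 (edgeR, adjusted p = 0.571). It was the only member with an unadjusted p under 0.05, and its change was 0.27 without the Arg1 group (adjusted p = 0.851).

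The adaptors showed small differences. Snx17, which picks cargo for retriever, was at 108, 110 and 112 CPM, a change of 0.04 ± 0.15. Snx27, which picks cargo for retromer, was at 47.8, 52.7 and 47.3 CPM, a change of -0.09 ± 0.15. The knockout library was lowest, but its log2 difference from control 1 was -0.02, and the controls differed by 0.14.

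Within single cell groups the same comparison was made where every library had at least 200 cells. No member passed in any of the 5 groups. The share of all genes called was 0% in the Ace-Treml4 group, 0.467% in the C1q group, 0.0894% in the MHC-II group, 0% in the Vcan-Ly6c2 group and 0% in the ungated group. With edgeR, 1 member had an unadjusted p under 0.05 in the Ace-Treml4 group and 1 in the C1q group, and 0 in the other groups. Vps26a had log2 changes of 0.26, 0.35, 0.12, 0.29 and 0.31 in these groups, in the order given. All 5 values were above 0 and 0 of them passed, the lowest adjusted p of edgeR being 0.611 in the C1q group. In C1q cells Vps26a stood at 91.7 and 103 CPM in control libraries 1 and 3, and at 124 CPM in the knockout. The member with an unadjusted p under 0.05 in the Ace-Treml4 group was Ccdc93, at 13.6, 13.02 and 23.7 CPM from 32, 27 and 39 UMIs. Its change was 0.83 ± 0.32, with an adjusted p of 0.898 by edgeR.

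A test of whether the knockout effect differed between the 8 groups called 66 of 11209 genes (0.589%) and 0 of the 9 members (edgeR, gate by genotype terms). The lowest value among them was for Snx27 (adjusted p = 0.349), the only member with an unadjusted p under 0.05. Snx27 was highest in the knockout library in Gpnmb-Lpl cells, at 93.7 CPM against 60.3 and 71.4, and lowest in it in MHC-II cells, at 39.7 CPM against 49.2 and 48.4. The opposite orders in these 2 groups did not pass the test of the difference.

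Some of these genes differed between the cell groups themselves. Each group was compared with the mean of the other 7 in a model that also held the library (11209 genes, 24 sums), so the comparisons share cells. Of 72 tests on members, 17 passed, 10 higher and 7 lower. Vps29 accounted for 5 of them, Vps35 for 3, and Ccdc22, Dscr3, 9030624J02Rik and Snx27 for 2 each. Of all genes, 1.97% to 16.6% were called higher in a group and 0.642% to 15.5% lower. The total of 17 therefore does not by itself set the members apart from all genes. Snx17 and Ccdc93 passed in no group, although with doubled marker levels Snx17 was called higher in Vcan-Ly6c2 cells (0.17, adjusted p = 0.0297 in edgeR). Dscr3 was not called in Gpnmb-Lpl cells, but was called higher there with library totals (0.26, adjusted p = 0.046) and after thinning each cell to 3000 UMIs (0.52, adjusted p = 0.0112). Doubled levels also added Dscr3 in C1q cells (0.31) and 9030624J02Rik in Arg1 cells (0.35) as higher. Thinning added 9030624J02Rik in S100a8-Chil3 cells as lower (-0.42), and leaving out control 1 added Vps26a in Ace-Treml4 cells as lower (-0.28). Nothing passed for any member in the MHC-II group (4.26% of all genes higher, 2.13% lower) or the ungated group (1.97% higher, 0.642% lower), where 0 members had an unadjusted p under 0.05 in edgeR.

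**Figure D2:**
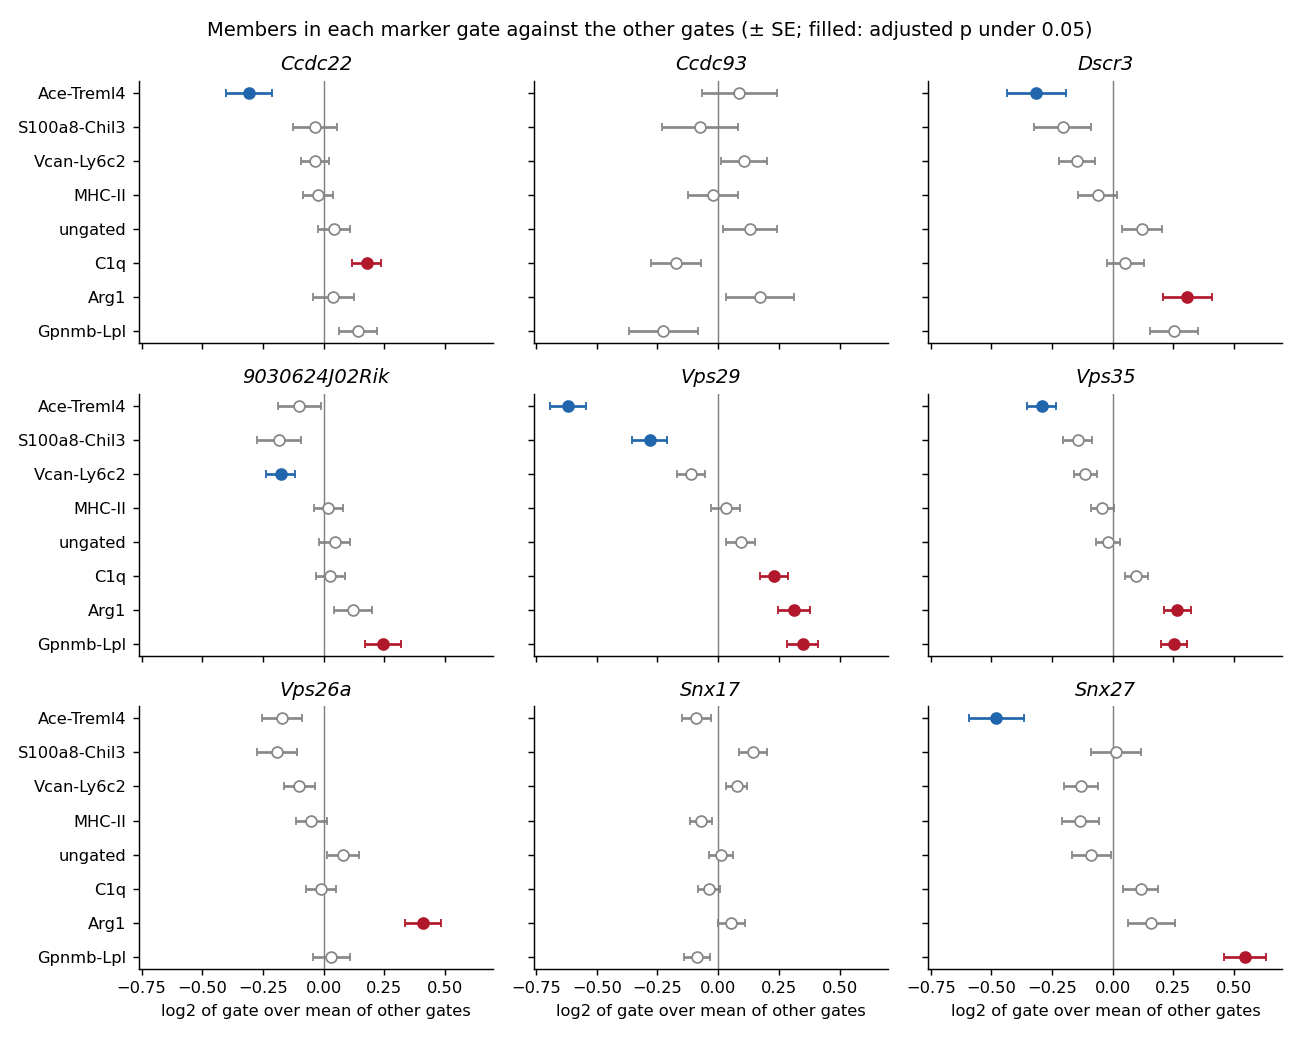
Log2 level of each gene in a cell group over the mean of the other groups, with SE from the edgeR model over 3 libraries; filled red or blue points have an adjusted p under 0.05. Vps29 falls to -0.62 in Ace-Treml4 cells and reaches 0.35 in Gpnmb-Lpl cells, while the 8 points of Snx17 stay within 0.15 of 0.

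The Ace-Treml4 group, which carries markers of patrolling monocytes, had 5 of 9 members lower and 0 higher, against 15.1% and 16.0% of all genes. The median over the members was -0.29 on the log2 scale, beside -0.0012 over all genes tested. Vps29 was at 132, 127 and 134 CPM in Ace-Treml4 cells of control 1, control 3 and knockout 4. That was the lowest of the 8 groups in 2 libraries, and the difference was -0.62 ± 0.07 (edgeR, adjusted p = 1.18e-07). Snx27 was at 35.6, 42.9 and 32.3 CPM, the lowest group in all 3 libraries, with a difference of -0.48 ± 0.11 (adjusted p = 0.00138). Vps35 was at 114, 105 and 115 CPM, also the lowest group in all 3 libraries, with a difference of -0.29 ± 0.06 (adjusted p = 0.000374). The shared core subunit, the retromer backbone and the retromer adaptor were thus all at their lowest where patrolling markers were highest, except that Vps29 was lower still in S100a8-Chil3 cells of control 3.

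Ace-Treml4 cells were also the shallowest group of control 1, control 3 and knockout 4, with median depths of 6953, 6312 and 5537 UMIs, and their median mitochondrial share was 1.21%, 1.29% and 1.28%. With every cell thinned to 3000 UMIs the differences of Vps29, Snx27 and Vps35 were -0.66, -0.63 and -0.26, and each still passed. With marker levels doubled, which left 36 Ace-Treml4 cells in control 3, Vps29 was at -1.26 and passed, while Snx27 (-0.52, adjusted p = 0.316) and Vps35 (-0.31, adjusted p = 0.178) did not. Ccdc22 was at 26.7, 27.5 and 29.8 CPM, from 63, 57 and 49 UMIs, with a difference of -0.31 ± 0.09 (edgeR, adjusted p = 0.0192). Dscr3 was at 34.7, 32.8 and 23.7 CPM, with a difference of -0.32 ± 0.12 (adjusted p = 0.046). These 2 calls were less firm. That of Ccdc22 was lost without control 1 (-0.20, adjusted p = 0.325), without control 3 (-0.35, adjusted p = 0.0527), after thinning (-0.34, adjusted p = 0.187) and with doubled levels (-0.26, adjusted p = 0.617). That of Dscr3 was lost without control 1 (-0.38, adjusted p = 0.0904), without knockout 4 (-0.15, adjusted p = 0.484), after thinning (-0.39, adjusted p = 0.128) and with library totals (-0.27, adjusted p = 0.0752). It passed without control 3 (-0.42, adjusted p = 0.0209) and with doubled levels (-1.13, adjusted p = 0.0262).

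**Figure D3:**
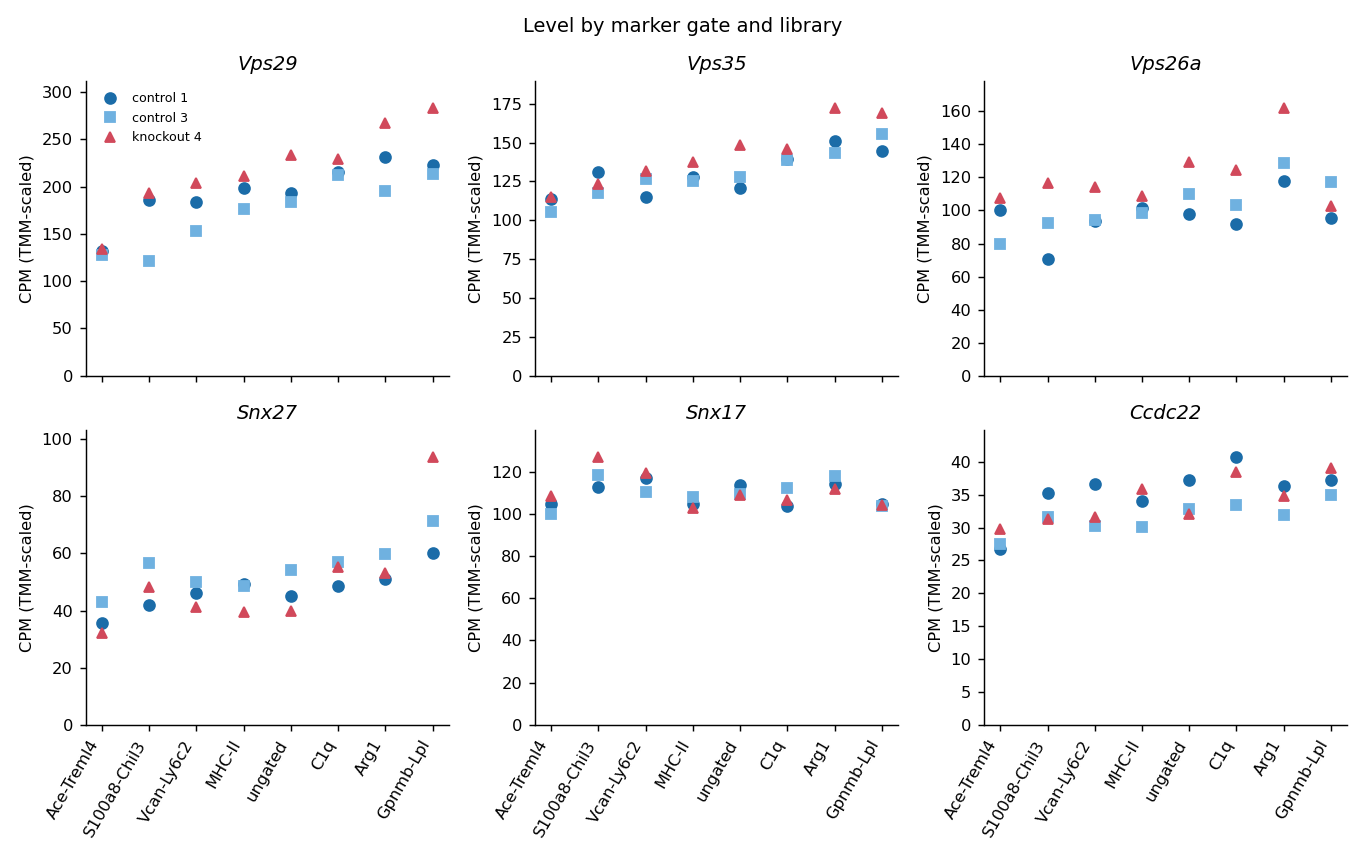
Level in CPM (linear axis from 0) of 6 of the genes in each cell group, 1 point per library; groups run from left to right in the order of the mean level of Vps29. Vps29, Vps35 and Snx27 are lowest or near lowest at Ace-Treml4 and high at Gpnmb-Lpl, Vps26a is highest at Arg1 in every library, and Snx17 stays between 99.8 and 127 CPM.

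The Arg1 group had 4 of 9 members higher and 0 lower, against 13.5% and 12.1% of all genes. Arg1 encodes arginase, a marker of macrophages in wounds. Vps26a was at 118, 129 and 162 CPM there, from 240, 157 and 820 UMIs, the highest group in all 3 libraries. Its difference was 0.41 ± 0.07 (edgeR, adjusted p = 8.27e-05). Vps29 was at 231, 195 and 267 CPM, above the mean of the other groups in every library, with a difference of 0.31 ± 0.07 (adjusted p = 0.000513). Vps35 was at 151, 143 and 172 CPM, the highest group in 2 libraries, with a difference of 0.27 ± 0.06 (adjusted p = 0.000477). All 3 core subunits of retromer were therefore high in Arg1 cells, and their calls held in each of the 6 alternatives run.

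Dscr3 was at 47.0, 33.6 and 49.6 CPM in Arg1 cells, a difference of 0.31 ± 0.10 (edgeR, adjusted p = 0.0249). In control 3 it rested on 41 UMIs and was not high. The call was lost without control 1 (0.29, adjusted p = 0.118), without knockout 4 (0.18, adjusted p = 0.507) and after thinning (0.26, adjusted p = 0.264). Platelet markers summed to 25.8, 5.04 and 80.5 CPM in Arg1 cells of control 1, control 3 and knockout 4, with 3, 2 and 1 of the 4 markers at 0, and their part in these differences was not tested.

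The Gpnmb-Lpl group, with genes of lipid-handling macrophages, had 4 of 9 members higher and 0 lower, against 11.1% and 10.8% of all genes. Snx27 was at 60.3, 71.4 and 93.7 CPM there, from 317, 263 and 91 UMIs, the highest group in all 3 libraries. Their median depth was 9081, 8716 and 6104 UMIs. Its difference was 0.55 ± 0.09 (edgeR, adjusted p = 2.14e-05). Vps29 was at 223, 214 and 283 CPM, with a difference of 0.35 ± 0.06 (adjusted p = 0.000151). Vps35 was at 145, 156 and 169 CPM, with a difference of 0.25 ± 0.05 (adjusted p = 0.000864). Both retromer core subunits were above the mean of the other groups in every library, while Vps26a, at 95.4, 117 and 103 CPM, was not called (0.03 ± 0.08). The calls of Snx27, Vps29 and Vps35 held in each of the 6 alternatives, that of Vps35 narrowly without control 3 (adjusted p = 0.05 after rounding).

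9030624J02Rik was at 52.1, 49.4 and 46.3 CPM in Gpnmb-Lpl cells, a difference of 0.25 ± 0.07 (edgeR, adjusted p = 0.0156). It was the highest group in both controls but not in the knockout library, where it rested on 45 UMIs. The call was lost without control 1 (0.29, adjusted p = 0.0809), without control 3 (0.17, adjusted p = 0.335), after thinning (0.12, adjusted p = 0.68) and with doubled levels (0.22, adjusted p = 0.194). In Vcan-Ly6c2 cells, the inflammatory monocyte range, the same gene was the only 1 of 9 members called lower and 0 were higher, against 12.0% and 15.1% of all genes, a share near that of all genes. It stood at 43.2, 34.7 and 39.7 CPM there, a difference of -0.18 ± 0.06 (adjusted p = 0.0215). That call was lost without control 1 (-0.22, adjusted p = 0.051), without control 3 (-0.16, adjusted p = 0.206), without knockout 4 (-0.16, adjusted p = 0.0949), after thinning (-0.16, adjusted p = 0.232) and with doubled levels (-0.17, adjusted p = 0.176).

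In C1q cells, which carry complement genes of mature macrophages, 2 of 9 members were higher and 0 lower. Of all genes, 16.6% were higher and 15.5% lower there, so the higher count was near the share of all genes. Vps29 was at 215, 213 and 229 CPM, a difference of 0.23 ± 0.06 (edgeR, adjusted p = 0.00266). Ccdc22 was at 40.7, 33.4 and 38.5 CPM, a difference of 0.18 ± 0.06 (adjusted p = 0.0204). The call of Vps29 was lost without control 3 (0.15, adjusted p = 0.085). That of Ccdc22 was lost without control 1 (0.14, adjusted p = 0.251), control 3 (0.24, adjusted p = 0.052) or knockout 4 (0.17, adjusted p = 0.0916), after thinning (0.09, adjusted p = 0.595) and with doubled levels (0.21, adjusted p = 0.073). In S100a8-Chil3 cells, with genes shared by neutrophils, Vps29 was the 1 member of 9 called lower and 0 were higher, against 14.4% and 16.1% of all genes, a share near that of all genes. In edgeR 5 members had an unadjusted p under 0.05 there, and with library totals Vps35 (-0.18, adjusted p = 0.02) and Vps26a (-0.22, adjusted p = 0.0392) were called lower as well. Vps29 was at 186, 121 and 193 CPM, a difference of -0.28 ± 0.07 (adjusted p = 0.00305). The low value was that of control 3, and without that library the difference was -0.12 (adjusted p = 0.294), and with doubled levels it was -0.33 (adjusted p = 0.0586).

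The order of the groups was therefore not shared by all 9 genes. By mean over the 3 libraries, Vps29 and Vps35 had the same order from low to high, which ran from Ace-Treml4 through S100a8-Chil3, Vcan-Ly6c2, MHC-II, ungated, C1q and Arg1 to Gpnmb-Lpl. The mean of Vps29 rose 1.83-fold from 131 to 240 CPM along it, and that of Vps35 1.40-fold. The values of neighbouring groups in that order overlapped at every step for Vps29, and for Vps35 at every step except between Ace-Treml4 and S100a8-Chil3. Snx27 had the widest range, 2.03-fold between Ace-Treml4 and Gpnmb-Lpl, and the 3 values in Gpnmb-Lpl cells lay above all 3 in Arg1 cells, the next group, while all other neighbours overlapped. Snx17 had the narrowest, 1.15-fold. Its lowest mean, 104.1 CPM in Gpnmb-Lpl cells, was level with the 104.3 CPM in Ace-Treml4 cells, and Gpnmb-Lpl cells were not the lowest group in any single library. Of the 8 tests on Snx17, 1 had an unadjusted p under 0.05 in edgeR.

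The share of paralogous transcripts that belonged to the retriever side needs no scaling factor, but does not show which gene of a pair moved. The 95% intervals are exact (Clopper-Pearson) and hold counting error alone, and because 3' capture differs between genes the shares compare cells, not genes. Snx17 made up 69.2% (68.1 to 70.4) of Snx17 plus Snx27 UMIs in control 1, 67.5% (66.7 to 68.4) in control 3 and 70.3% (68.9 to 71.6) in knockout 4. In Gpnmb-Lpl cells the share was 63.4% (60.1 to 66.7), 59.2% (55.3 to 63.1) and 52.6% (45.3 to 59.8), the lowest of the 8 groups in every library. In Ace-Treml4 cells it was 74.6% (69.6 to 79.2), 69.9% (64.4 to 75.1) and 77.1% (71.1 to 82.3), the highest group in every library. The intervals of these 2 groups did not overlap in any library.

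The retriever share of the other pairs varied less between groups. 9030624J02Rik made up 26.3% (25.3 to 27.4), 22.9% (22.1 to 23.6) and 23.8% (22.7 to 25.0) of its UMIs plus those of Vps35 in control 1, control 3 and knockout 4. Dscr3 made up 25.5% (24.4 to 26.6), 22.2% (21.5 to 23.0) and 21.4% (20.3 to 22.5) of Dscr3 plus Vps26a plus Vps26b. For both, the 2 controls differed by more than their counting intervals, and knockout 4 was near control 3, so no difference by genotype stood out from that between controls. The lowest Dscr3 share was in Ace-Treml4 cells of knockout 4, 15.8% (11.5 to 20.9), from 39 of 247 UMIs.

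**Figure D4:**
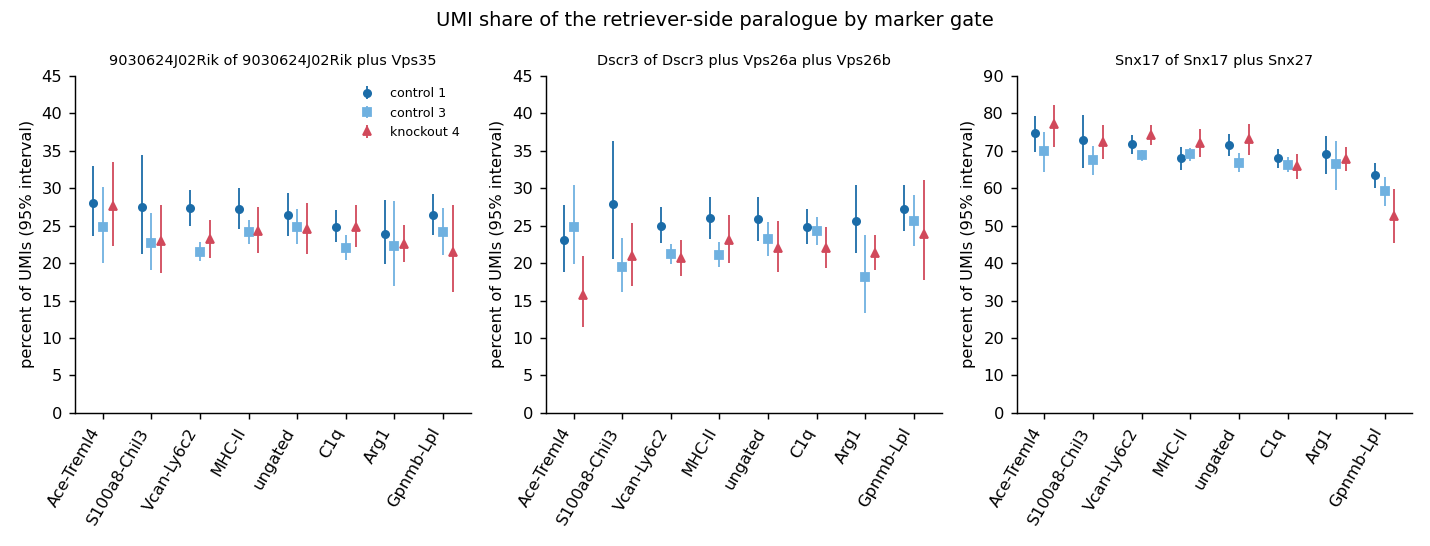
Percent of UMIs of related genes that belong to the retriever-side gene, by cell group and library, with exact 95% intervals; the vertical axes start at 0 and the right panel has another scale. The Snx17 share is lowest in Gpnmb-Lpl cells of each library (63.4%, 59.2% and 52.6%), while the other shares stay between 15.8% and 28.1%.

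Other genes of the pathway were read from lists. In the knockout comparison, 0 of 10 COMMD genes passed (edgeR, 0 with an unadjusted p under 0.05), the 2 smallest p being those of Commd10, given above, and Commd5, at only 1.12, 0.583 and 1.41 CPM. None passed among Fam45a (the further CCC subunit, 29.5, 28.9 and 31.5 CPM) and Vps26b (18.4, 19.5 and 19.1 CPM). Of 8 other adaptors and regulators, Snx31 had 0 UMIs in every library, which at that count says only that it was not detected, and 0 of 7 passed. Ehd1 (179, 171 and 219 CPM, log2 change 0.32 ± 0.15) and Snx3 (315, 325 and 401 CPM, 0.33 ± 0.15) had the smallest p there. All 4 sorting nexins of the ESCPE-1 coat were above both controls, as were 36.1% of all genes, and 0 passed. Snx6 was at 117, 117 and 147 CPM (0.33 ± 0.15) and Snx1 at 121, 119 and 149 CPM (0.31 ± 0.15). Snx2 and Snx5 were only 0.076 and 0.035 above control 1 on the log2 scale, while control 3 differed from control 1 by -0.29 and -0.27. Of 7 WASH complex genes, which build actin on endosomes, 0 passed, and Washc4 (0.28 ± 0.14) and Washc5 (0.16 ± 0.16) had the smallest p.

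Of 15 cargo genes, 1 passed. Slc2a1, the glucose transporter GLUT1 that retromer and Snx27 recycle, was at 41.4 and 51.7 CPM in control libraries 1 and 3, and at 144 CPM in the knockout. The groups were far apart, with a log2 change of 1.63 ± 0.17 (edgeR, adjusted p = 0.0235). It was also high in Arg1 cells (0.82 ± 0.10), where it stood at 85.2, 59.7 and 219 CPM, and those cells were more frequent in the knockout library. It was also highest in the knockout library in each of the other 7 groups, for example at 36.9, 46.3 and 119 CPM in C1q cells and at 39.8, 54.3 and 133 CPM in Vcan-Ly6c2 cells. Those groups were not free of Arg1 transcripts. Without TMM scaling, Arg1 was at 549, 202 and 1724 CPM in C1q cells and at 58.5, 27.7 and 124 CPM in Vcan-Ly6c2 cells. The part of Arg1-expressing cells in the Slc2a1 difference was not tested. Snx27 itself, the adaptor, did not pass in the same comparison.

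Between cell groups the other 44 pathway genes tested, with Commd5 left out by the count filter, ran in part with the members. In Ace-Treml4 cells 8 were higher and 21 lower, against 16.0% and 15.1% of all genes, so that the higher count was near the share of all genes. In Arg1 cells 15 were higher and 4 lower, against 13.5% and 12.1%. In Gpnmb-Lpl cells 14 were higher and 5 lower, against 11.1% and 10.8%. S100a8-Chil3 cells had 7 higher and 13 lower, against 16.1% and 14.4%, and Vcan-Ly6c2 cells 6 and 12, against 15.1% and 12.0%. C1q cells had 11 higher and 5 lower, against 16.6% and 15.5%. MHC-II cells had 0 and 1, against 4.26% and 2.13%, and the ungated group 2 and 1, against 1.97% and 0.642%. The 4 genes of the ESCPE-1 coat ran together in Ace-Treml4 and in Arg1 cells. In Ace-Treml4 cells 4 of 4 were lower, with Snx6 at -0.63 ± 0.07 and Snx2 at -0.55 ± 0.05. In Arg1 cells 4 of 4 were higher, with Snx6 at 0.76 ± 0.06 and Snx5 at 0.68 ± 0.05. Snx6 was at 72.9, 88.7 and 87.1 CPM in Ace-Treml4 cells and at 169, 188 and 219 CPM in Arg1 cells. Snx1 went apart in other groups. In Gpnmb-Lpl and C1q cells it was not called (-0.01 ± 0.05 and -0.06 ± 0.05), while Snx2, Snx5 and Snx6 were higher. In S100a8-Chil3 cells it was higher (0.41 ± 0.05) while Snx2, Snx5 and Snx6 were lower. In Vcan-Ly6c2 cells it was higher (0.24 ± 0.04) while Snx5 and Snx6 were lower.

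COMMD genes were called lower in Ace-Treml4 cells in 6 of 9 cases (Commd1, Commd2, Commd3, Commd4, Commd7 and Commd9), against 15.1% of all genes, the lowest being Commd9 at -0.58 ± 0.15. In Arg1 cells 0 of 9 COMMD genes were called. Of the 7 other adaptors and regulators tested, 4 were lower in Ace-Treml4 cells, against 15.1% of all genes. The same 4 were higher in Arg1 and in Gpnmb-Lpl cells, against 13.5% and 11.1%. They were Snx12 and Snx3, Rab7 and Ehd1, the last 3 of which bring retromer to endosomes or act on its tubules. The share of all genes with all 3 calls was not computed, and the comparisons share cells. Tbc1d5, which turns Rab7 off, was lower in Arg1 cells (-0.35 ± 0.12) and was not called in Ace-Treml4 cells (0.27 ± 0.12), and Rab21 and Ankrd27 were called in none of these 3 groups. In Gpnmb-Lpl cells 3 of 7 WASH genes were higher, against 11.1% of all genes, led by Washc5 (0.57 ± 0.08). Cargo genes went both ways: Sorl1, a sorting receptor that retromer carries, was higher in Ace-Treml4 cells (0.79 ± 0.07) and lower in Arg1 cells (-1.11 ± 0.09). Itgb1, the beta-1 integrin that Snx17 and retriever recycle, was higher in Ace-Treml4 cells (0.67 ± 0.05), where Snx17 itself was not called.

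**Figure D5:**
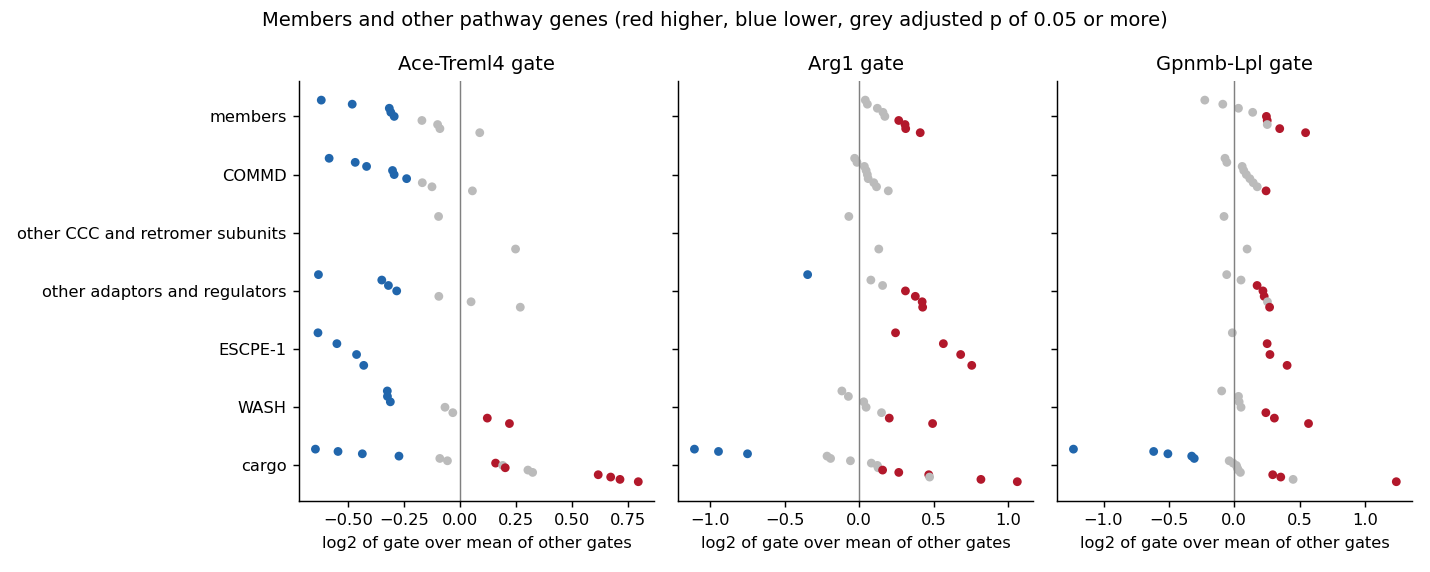
Log2 level over the mean of the other groups for the 9 genes and the other pathway genes by list, in Ace-Treml4, Arg1 and Gpnmb-Lpl cells; each point is a gene, red higher, blue lower and grey not called. All 4 ESCPE-1 genes are lower in Ace-Treml4 cells and higher in Arg1 cells, and cargo genes spread to both sides.

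Genes with the most similar pattern over the 24 values of library and cell group were found by Pearson's r of log2 CPM centred within each library, over 5604 genes at 20 CPM or more. The points share libraries and depth, so r is a description only. Vps29 was most like Rab7b (0.97) and Edf1 (0.95), and Vps35 most like Anxa5 (0.95) and Tmem120a (0.94). Snx27 was also most like Anxa5 (0.86), followed by Nup50 (0.85). Vps26a was most like Ubtf (0.84) and Wnk1 (0.83), Dscr3 like Gabarap (0.87) and Plin2 (0.86), and 9030624J02Rik like Ftl1-ps1 (0.86) and Srxn1 (0.80). Ftl1-ps1 is a pseudogene whose reads can come from its parent gene. Ccdc22 was most like Akr1a1 and 0610012G03Rik, Snx17 like Copz1 and D8Ertd738e, and Ccdc93, the lowest at 0.75, like Rab10os. Among the members, r was 0.89 between Vps29 and Vps35 and 0.83 between Vps29 and Dscr3, and -0.44 between 9030624J02Rik and Snx17.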

How the data were processed

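Ly6Chi monocytes of mouse liver were measured in 3 libraries. The deposited values are raw UMI counts by gene and barcode, made with Cell Ranger 3.0.2 after bcl2fastq on GRCm38 per the submitters' processing notes, and the other deposited files, per the file headers and contents, list barcodes and gene symbols. The filter behind the barcodes is not stated. The design text states 4860, 8149 and 5229 cells, beside 4814, 8109 and 5152 barcodes deposited. The members and gene lists were chosen with earlier results of these data known, and the marker levels were set on the marker genes after their distributions were seen.

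Cells were kept at 500 genes or more and 10% mitochondrial UMIs or less. Doublets were not removed; cells above 2 times the median UMIs were left out in an alternative. Cells at 10 or more UMIs per 10000 for T, B or NK cell, neutrophil, plasmacytoid or cDC1 dendritic cell, basophil, endothelial or Kupffer markers were left out (45, 55 and 32 cells). The summed markers of these classes, B cell markers (46.5, 44.7 and 22.5 CPM) included, were read in the remaining cells. Hepatocyte (22.0, 65.7 and 27.6 CPM) and erythroid markers (42.4, 61.2 and 30.3) were read there as well, with no cell left out on them.

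UMIs were summed per library, and per library and cell group, and tested two-sided by quasi-likelihood in edgeR 4.0.16 under R 4.3.3, after filterByExpr and with TMM factors, with Benjamini-Hochberg adjustment over all genes tested and a threshold of 0.05. The knockout comparison had 1 residual degree of freedom, 6.21 prior degrees of freedom and a biological coefficient of variation of 16.0%, and its single knockout library was taken to vary as the controls do. Between cell groups, each was tested against the mean of the other 7 with library as a block (14 residual degrees of freedom). The labels do not say that libraries came from separate mice. The p-values of the knockout comparison therefore measure the spread between control libraries, which may be technical. With library as a block, those between cell groups measure how far group differences varied from library to library, control and knockout alike. That spread may be technical too. The controls differed beyond sampling noise (chi-square per degree of freedom 52.5 over 14867 genes). CPM were computed from the deposited counts with TMM-scaled totals, and log2 changes were computed here with standard errors (SE). The scripts were tested on simulated data.

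All 9 members were named. Of each list of other pathway genes, those past the threshold or, with none, the 2 with the smallest p were named, and for each member the 2 genes of highest correlation across cell groups (prior count 2). A gene that this rule selects is not reported here. From the cell group comparison, further genes were chosen after their values were seen. Alternatives were DESeq2 1.42.0, library totals, no count filter, other cell filters, thinning each cell to 3000 UMIs (496, 673 and 732 cells were too shallow), doubled marker levels and leaving out each library.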

Additional observations from a re-analysis of the deposited data

How the results depend on the processing

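No paired analysis was possible because the controls are numbered 1 and 3 and the knockout library 4, so the groups share no replicate number. In the knockout comparison 0 members passed under every alternative that gave a test, while the number of genes called over all genes, 28, was 118 with DESeq2, 443 with no count filter, 4 without Arg1 cells and 9 without high-UMI cells. The median log2 change of the members, 0.11, was 0.056 as an equal mix of cell groups, 0.055 with library totals, 0.084 with no count filter, 0.14 after thinning, 0.063 without Arg1 cells, 0.13 without high-UMI cells, and from 0.047 to 0.15 with either control left out (1 library against 1, with no test). Ccdc22 turned to -0.029 with library totals, -0.00070 with no count filter, -5.1e-05 without high-UMI cells and, with either control left out, to between -0.089 and 0.13. Snx17 turned to -0.0084 with library totals and 9030624J02Rik ran from -0.030 without control 3 to 0.23 without control 1. The causes were not tested. Of the 17 calls between cell groups, all kept their direction in the 6 alternatives and 7 passed in all of them: Vps29 in Ace-Treml4, Arg1 and Gpnmb-Lpl cells, Vps35 in Arg1 and Gpnmb-Lpl cells, Vps26a in Arg1 cells and Snx27 in Gpnmb-Lpl cells. The number of lower calls, 7, was 2 with doubled marker levels, which left as few as 36 and 46 cells in a group, and 4 to 5 with 1 library left out, the 5 without control 1 including Vps26a in Ace-Treml4 cells, which was not among the 7. After thinning, the knockout shares were 22.6% for Dscr3 and 71.9% for Snx17. Ccdc93, the member with the fewest UMIs, had the widest standard error in the knockout comparison (0.18).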
